A study of Mus musculus with 14 samples.

Results

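The regions in which the histone mark H3K9me2 differed between sham-operated mouse hearts and hearts under pressure overload are described here. All lines of the authors' H3K9me2 table on chromosomes 1 to 19, X and Y were taken, which gave 245088 regions of the 1186054 that the series lists for 3 antibodies. Chromatin came from cardiomyocyte-enriched preparations of C57BL/6J mice, either sham-operated and labelled as untreated or 1 week after transverse aortic constriction, in which the aorta is narrowed so that the left ventricle works against a higher pressure. Each condition had 2 biological replicates immunoprecipitated with the anti-H3K9me2 antibody ab1220 of Abcam. Age and sex are not given in the labels, and a preparation that is enriched may still hold other cells of the heart.

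The table gives 4 values for each region, as a first and a second pair of libraries, and does not say which pair is sham. Directions are therefore given as higher in the first or in the second pair. It lists only regions that the authors selected for a difference (largest p 0.00999), so the size of a difference was partly fixed by that choice. The scale of the values is not stated. Each log2 difference below compares the mean of the second pair with that of the first after 1 was added to both, and understates the change of low regions. Where the lower value of one pair still exceeded the higher value of the other, the region is called separated.

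H3K9me2 is a mark of silent chromatin. It is placed mainly by G9a and its partner GLP, encoded by Ehmt2 and Ehmt1, is removed by demethylases of the Kdm3 and Kdm4 families, and is bound by reader proteins of the HP1 and Cdyl families. In differentiated cells it covers long domains, many of them at the nuclear lamina and poor in active genes, and it is usually scarce at CpG-rich promoters.

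Among the regions higher in the second pair were some that lay at or near the starts of genes with well known functions. The promoters of 6 genes with regions of either direction at or near the start are printed. The results below turn on whether a region reached the start and on how many CpG the promoter holds. Sequences are from RefSeq, build GRCm38.p6, each with 250 bases before and 50 after the annotated start, 5′ to 3′ on the gene's strand, and capitals mark each CG. Dnmt3b lies at chr2:153649199-153649498 on the plus strand, Tnnt2 at chr1:135836084-135836383 on the plus strand, Adrb1 at chr19:56721867-56722166 on the plus strand and Ankrd1 at chr19:36119795-36120094 on the minus strand. Zfp982 lies at chr4:147442864-147443163 and Slc16a9 at chr10:70245026-70245325, both on the plus strand, and both were met by regions higher in the first pair.
Dnmt3b: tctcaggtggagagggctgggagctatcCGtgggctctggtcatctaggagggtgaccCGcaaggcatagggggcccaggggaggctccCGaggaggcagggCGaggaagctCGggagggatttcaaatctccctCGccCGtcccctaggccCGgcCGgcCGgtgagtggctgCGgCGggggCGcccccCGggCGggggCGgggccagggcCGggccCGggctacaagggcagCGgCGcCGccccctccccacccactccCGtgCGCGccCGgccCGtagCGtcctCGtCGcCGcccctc
Tnnt2: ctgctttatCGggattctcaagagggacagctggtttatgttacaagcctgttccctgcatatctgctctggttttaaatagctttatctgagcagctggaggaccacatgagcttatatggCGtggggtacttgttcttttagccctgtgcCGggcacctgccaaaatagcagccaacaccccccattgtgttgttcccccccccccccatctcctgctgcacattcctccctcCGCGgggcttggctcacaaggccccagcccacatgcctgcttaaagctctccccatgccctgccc
Adrb1: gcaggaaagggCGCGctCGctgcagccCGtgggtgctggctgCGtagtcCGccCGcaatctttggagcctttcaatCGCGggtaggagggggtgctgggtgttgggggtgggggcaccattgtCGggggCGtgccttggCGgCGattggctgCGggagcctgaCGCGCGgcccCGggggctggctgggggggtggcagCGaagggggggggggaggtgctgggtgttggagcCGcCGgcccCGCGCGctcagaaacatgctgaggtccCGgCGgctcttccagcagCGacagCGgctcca
Ankrd1: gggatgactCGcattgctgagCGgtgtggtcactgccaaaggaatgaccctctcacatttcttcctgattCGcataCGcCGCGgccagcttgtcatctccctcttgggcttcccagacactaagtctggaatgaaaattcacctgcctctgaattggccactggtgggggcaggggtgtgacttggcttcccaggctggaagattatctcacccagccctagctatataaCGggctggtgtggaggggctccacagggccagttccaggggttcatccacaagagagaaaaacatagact
Zfp982: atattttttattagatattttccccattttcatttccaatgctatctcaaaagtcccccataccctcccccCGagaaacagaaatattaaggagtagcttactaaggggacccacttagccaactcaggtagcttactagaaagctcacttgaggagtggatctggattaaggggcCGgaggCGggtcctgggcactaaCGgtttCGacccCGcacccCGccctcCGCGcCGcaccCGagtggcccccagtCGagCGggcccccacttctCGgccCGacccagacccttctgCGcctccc
Slc16a9: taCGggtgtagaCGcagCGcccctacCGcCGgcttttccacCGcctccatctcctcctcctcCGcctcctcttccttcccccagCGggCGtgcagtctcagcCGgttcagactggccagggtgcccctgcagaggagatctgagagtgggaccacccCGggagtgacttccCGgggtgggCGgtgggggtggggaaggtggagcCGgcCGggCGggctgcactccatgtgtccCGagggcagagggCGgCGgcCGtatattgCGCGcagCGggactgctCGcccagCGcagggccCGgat

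The Dnmt3b promoter held 30 CG dinucleotides, more than 88.3% of the 32851 RefSeq promoters of the same length. Adrb1 held 28 and Slc16a9 held 26. Zfp982 held 16, Ankrd1 7 and Tnnt2 5, beside a median of 7 over all promoters. The regions covered the starts of Dnmt3b, Tnnt2, Zfp982 and Slc16a9. At Adrb1 the region began 134 bp after the start, and at Ankrd1 no region met the promoter printed here.

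Over all 21887 protein-coding genes, 14.0% had a separated second-pair region within 2500 bp of an end and 19.4% had a separated first-pair region. Some of those at genes of the heart differed by several fold. Dnmt3b, a de novo DNA methyltransferase, had a region from chr2:153646751-153649950 with values of 259 and 482 against 2707 and 2553, first pair against second as in all that follow. The log2 difference was 2.82, and both second-pair libraries were above both first-pair libraries. Within the rest of the gene, 1 region was higher in the second pair, with 14 and 0 against 64 and 75, and 2 were higher in the first. Those 2 had 81 and 42 against 14 and 22, and 76 and 67 against 0 and 38, so the direction at the start was not that of the whole gene.

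Adrb1, the main beta-adrenergic receptor of cardiomyocytes, is a gene of a single exon, and its region at chr19:56722251-56724050 had values of 45 and 123 against 1747 and 650 (log2 3.82). The libraries of each pair differed from each other by more than 2-fold here, and the pairs did not overlap. Ankrd1, a stress-induced ankyrin repeat protein of the sarcomere, had 4 regions in the gene or within 2500 bp of its ends, all higher in the second pair. The one upstream of the start, at chr19:36120551-36122550, had 135 and 76 against 941 and 919 (log2 3.13). Inside the gene, the regions at chr19:36119201-36119600 and chr19:36117851-36118550 had 0 and 22 against 112 and 159, and 19 and 56 against 147 and 186. A further one at chr19:36115051-36115850 had 12 and 33 against 294 and 195, and all 4 were separated.

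Tnnt2, cardiac troponin T of the thin filament, had a region at chr1:135835701-135836850 with 61 and 104 against 353 and 442 (log2 2.25). It was the only sarcomere gene with a separated second-pair region, of 22 examined. Pdlim5, a Z-disc protein, had a separated region in the other direction, with 78 and 163 against 44 and 29 (log2 -1.70). The main myosin heavy chain genes Myh6 and Myh7, the calcium pump gene Atp2a2 and the transcription factor gene Gata4 had no listed region in the gene or within 2500 bp of either end. Mef2c, another transcription factor of the heart, had 1 in its body, with 54 and 10 against 56 and 68 (log2 0.93).

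The natriuretic peptide genes, which stand side by side and are induced by load, each had 1 region before the start. Nppa, 922 bp upstream, had 30 and 109 against 180 and 150 (log2 1.24), and Nppb, 1400 bp upstream, had 138 and 71 against 177 and 170 (log2 0.73). Both were separated, by little at Nppb. Tnc, the matrix protein tenascin C, went the other way, with 83 and 175 against 44 and 30 (log2 -1.77). Ankrd2, a relative of Ankrd1, had regions of both directions. Acta1, skeletal actin, had 45 and 119 against 5 and 58 (log2 -1.35), and its pairs overlapped.

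**Figure D1:**
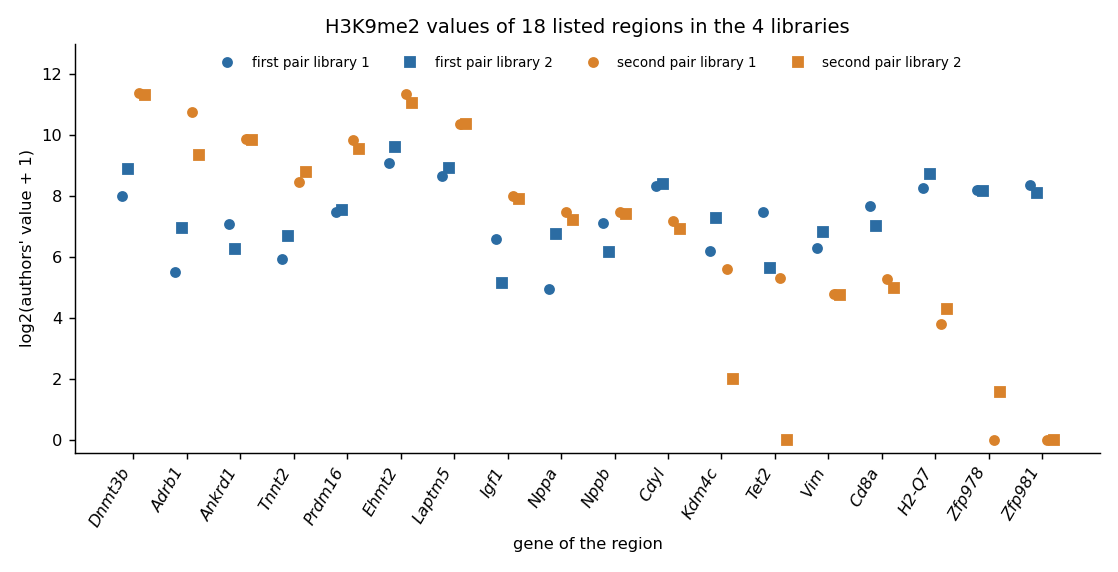
Value of each of the 4 libraries (log2 of the authors' value plus 1, vertical axis) in 1 region at each of 18 genes; blue points are the first pair and orange points the second. Second-pair points lie above both first-pair points from Dnmt3b to Nppb, and below them from Cdyl to Zfp981. The region shown is the one with the largest summed values among those selected at the gene. At H2-Q7, Zfp978 and Zfp981 it is instead the one with the most negative log2 difference. Other regions there differed less, such as 627 and 768 against 331 and 107 at H2-Q7 (log2 -1.67) and 1036 and 912 against 643 and 268 at Zfp981 (log2 -1.09).

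Other lists of genes of the heart were read against the shares over all genes, 14.0% second-pair and 19.4% first-pair. Of 21 fetal and stress genes, 4 had a separated second-pair region and 3 a first-pair one. Growth signalling had 6 of 33 with a first-pair and 2 with a second-pair region, and cardiac transcription factors had 3 of 21, Hand1, Isl1 and Srf, with a first-pair and 0 with a second-pair region. In fatty acid oxidation 1 of 25 genes was in each group. Calcium handling and ion channels had 3 of 29 first-pair and 2 second-pair genes, and adrenergic and cAMP signalling 2 of 27 each, among them Adrb1 and the G protein gene Gnas (52 and 139 against 172 and 279, log2 1.23). Glycolysis had 2 of 20 with a second-pair region, the lactate dehydrogenase gene Ldha (32 and 56 against 93 and 77) and the phosphofructokinase gene Pfkm (68 and 64 against 101 and 153). Of the listed regions, 7 of 12 at fetal and stress genes, 7 of 17 at growth signalling genes and 1 of 5 at cardiac transcription factors were higher in the second pair, beside 44.4% over all regions. Their median log2 differences were 0.76, -0.84 and -0.94, beside -0.66 over all regions, which was between -0.38 and -0.30 when 1 library was left out. Few regions lie near 0, so such a median mainly shows which direction had more regions. These counts are small and were not tested.

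Genes of the H3K9 methylation machinery themselves carried regions. Of 12 methyltransferases and partners, 4 had a separated second-pair region near an end, Setdb1, Prdm2, Prdm16 and Ehmt2, and 1, Ehmt1, a first-pair one, and the median log2 difference of the 5 regions was 1.50. The median over all regions was -0.66. Ehmt2, the gene of G9a itself, had 3 regions within its 15.6 kb, all higher in the second pair. The longest, at chr17:34905151-34909100, had 548 and 781 against 2603 and 2160 (log2 1.84). The others had 11 and 15 against 90 and 126, and 187 and 390 against 1003 and 877, and all 3 were separated. Ehmt1, the gene of GLP, had regions of both directions, 3 first-pair and 2 second-pair in its body, and one 2242 bp before its start with 72 and 63 against 41 and 28 (log2 -0.95).

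Prdm16, a methyltransferase gene of 321 kb, had a region at or beside its 3′ end with 178 and 189 against 929 and 747 (log2 2.19), and 5 second-pair and 4 first-pair regions in its body. Setdb1, an H3K9 methyltransferase that acts on repeats, had low values of 4 and 39 against 64 and 61 (log2 1.50). Of 11 demethylases, 8 had no region near an end, and the same number of 11 readers had none. Kdm4c had 73 and 156 against 48 and 3 (log2 -2.12), although another of its regions was higher in the second pair, and Kdm4d had 164 and 169 against 84 and 36 (log2 -1.46). The reader gene Cdyl had 325 and 335 against 145 and 122 (log2 -1.30). A separated first-pair region was at 3 demethylase and 3 reader genes and a second-pair one at 1 and 0, beside 19.4% and 14.0% of all genes. The median log2 differences of their regions were -0.98 and -1.28. Of 14 lamina and envelope genes, 1 (Syne2) had a separated first-pair region and 0 a second-pair one. DNA methylation enzymes had 1 of 11 in each direction, Dnmt3b in the second. The other, Tet2, which oxidises methylated cytosine, had 178 and 49 against 39 and 0 (log2 -2.48).

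Markers of other cells of the heart also lay in listed regions, in both directions. Of 15 endothelial markers 5 had a separated first-pair and 1 a second-pair region, of 14 fibroblast markers 4 and 2, of 10 smooth muscle and pericyte markers 2 and 2, and of 15 leukocyte markers 5 and 4, beside 19.4% and 14.0% of all genes. Several of these counts are near the shares over all genes. Summed over all regions of each list, the endothelial markers had 1009 and 1549 against 764 and 858, the fibroblast markers 849 and 1117 against 861 and 824, the smooth muscle and pericyte markers 425 and 409 against 448 and 438, and the leukocyte markers 1325 and 1753 against 2399 and 2318. The endothelial sum was lower in both second-pair libraries than in either of the first pair. The leukocyte sum rested on Laptm5, a lysosomal protein of blood cells, with 409 and 490 against 1342 and 1324 (log2 1.57). Without the regions of this gene the leukocyte sums were 898 and 1141 against 1045 and 963, which overlap, and 6 of the other 10 regions were higher in the first pair. Cd8a, a T cell coreceptor, had 203 and 131 against 38 and 31 (log2 -2.24), and the intermediate filament gene Vim 79 and 112 against 27 and 26 (log2 -1.81). Other members of the same lists went the other way. The leukocyte marker Ptprc had 50 and 0 against 106 and 88 (log2 1.91). The fibroblast marker Lum had 56 and 59 against 287 and 144 (log2 1.89), and also a separated first-pair region. The mark reports no transcript level, and the part of a change in cell make-up in any result here was not tested.

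Under the rule for named genes given below, the largest separated differences near gene ends were at genes of several kinds. The largest of the second-pair direction was at Gm20810, a predicted gene on chromosome Y, with 6 and 0 against 245 and 339 (log2 6.19). In the second-pair direction, Cep295, a centriole protein, had 11 and 12 against 278 and 150 (log2 4.10) and the olfactory receptor Olfr435 had 1 and 21 against 166 and 290 (log2 4.25). Cmya5, a protein of the muscle Z-disc and costamere, had 36 and 11 against 210 and 206 (log2 3.09), and Palld, an actin-bundling protein, had 51 and 2 against 193 and 317 (log2 3.22). In the first-pair direction, Atp13a2, a lysosomal transporter, had 163 and 266 against 37 and 1 (log2 -3.43). Zfp981 had 332 and 275 in the first pair and was listed at 0 in both libraries of the second. It, Zfp988 and Zfp978 had the largest differences of this direction (log2 -8.25, -7.81 and -7.20), all in the chromosome 4 cluster described below. The start of Slc16a9, a carnitine transporter, had 54 and 106 against 1 and 0, a first-pair mean of 80 that is below the minimum of that rule. A pair was listed at 0 in both libraries in 163 regions, of which 136 were higher in the first pair.

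A cluster of KRAB zinc finger genes on chromosome 4, a family whose proteins bind repeats, held the largest block of one direction. A run of 40 neighbouring listed regions, chr4:147276101-147458200, was higher in the first pair throughout, with summed values of 25131 and 20750 against 12099 and 10306, and 32 of the 40 were separated. Zfp978 had 51 first-pair and 7 second-pair regions in its body, Zfp982 33 and 5, and Zfp981 15 and 5. The start of Zfp982 printed above was in a region with 289 and 484 against 68 and 126 (log2 -1.98). These genes are near copies of each other, and the sources used here do not say how reads that match several copies were placed. In the 1 Mb bin that holds most of them, 45 of 218 regions (20.6%) were higher in the second pair, the lowest share of the 1128 bins with at least 100 regions.

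Other families were counted by genes with a separated region near an end, first-pair before second-pair, beside 19.4% and 14.0% of all genes. Of 397 zinc finger protein genes, the numbers were 92 and 69. The counts were 337 and 349 for 1110 olfactory receptors, 44 and 43 for 99 cytochrome P450 genes, and 22 and 20 for 71 defensins. Vomeronasal receptors had 126 and 101 of 353, Hox genes 9 and 8 of 39, histocompatibility genes 17 and 10 of 38, serpins 27 and 19 of 63, UDP glucuronosyltransferases 15 and 16 of 22 and killer cell lectin-like receptors 7 and 7 of 29. Glutamate and GABA receptors had 15 and 10 of 47, contactins, neurexins and neuroligins 8 and 6 of 19, cadherins 8 and 3 of 23, and predicted Gm genes 212 and 200 of 1329. Histone genes (5 and 4 of 70) and genes with ribosomal protein symbols (6 and 4 of 97) were rarely near a listed region, below the shares over all genes. The latter were matched by symbol, and their counts include the kinase genes Rps6kc1, Rps6ka1 and Rps6kb1, which do not encode ribosomal proteins. Keratins had more genes with second-pair regions (30 of 53, against 19 first-pair), while potassium channels (26 and 13 of 94) and solute carriers (87 and 50 of 375) had more with first-pair ones. By regions the keratins did not lean to the second pair: 44 of their 89 listed regions were higher in it, with a median log2 difference of -0.52. A region near the ends of several genes was counted for each of them in all these families. Protocadherins had more genes with first-pair regions (32 of 69, against 17 second-pair). Of their 49 listed regions, however, 31 were higher in the second pair, with a median log2 difference of 0.75. H2-Q7, a class Ib histocompatibility gene, had 4 regions, all higher in the first pair, and the one with the largest difference had 310 and 425 against 13 and 19 (log2 -4.44).

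Over the whole table, 136371 regions (55.6%) were higher in the first pair and 108717 (44.4%) in the second. They covered 88.8 Mb and 75.7 Mb, with median widths of 600 and 650 bp. Long regions were few, with 0.345% at 2000 bp or more, and the longest was 10550 bp. The median absolute log2 difference was 1.02 in first-pair and 0.97 in second-pair regions. The 2 libraries of a pair differed by a median of 0.57 on the log2 scale in the pair that was higher, and by 1.00 (first-pair regions) or 0.94 (second-pair regions) in the pair that was lower. Values at a lower pair were thus spread about as widely as the pairs were apart.

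Of all regions, 38.5% were separated with the first pair higher and 29.4% with the second pair higher. The majority turned with the scaling: 43.3% of separated regions were higher in the second pair with the values as deposited, 46.3% with each library divided by its sum and 51.4% with each library centred on its median. With 2 libraries a pair, an exact permutation test of 1 region cannot give a two-sided p below 0.333. In a second look at these already selected regions with limma, 1 region was higher in the second pair at a Benjamini-Hochberg adjusted p under 0.05 (0.000408% of the regions) and 0 in the first (0%). At an unadjusted p under 0.05 there were 13529 (5.52%) and 15411 (6.29%), and the larger count turned to the second pair with division by sums (16339 against 13070) and with median centring (21489 against 9759). Which direction had more of these regions thus depended on the scaling. A fit with 1 library left in a pair takes the spread at a region from the other pair alone. Such fits therefore cannot show whether the direction depends on single libraries. The called region, chr17:4625651-4627250, lies 367047 bp from the nearest protein-coding gene, Arid1b, and had 757 and 670 against 5655 and 10041 (log2 3.46, limma adjusted p 0.0440). With a pseudocount of 10, an alternative setting, its limma adjusted p was 5.82e-05. The fits that left out a library do not bear on this region in particular, for the reason given above. At Dnmt3b the limma adjusted p was 0.149, at Ankrd1 0.307, and at Adrb1 and the longest region of Ehmt2 0.383.

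**Figure D2:**
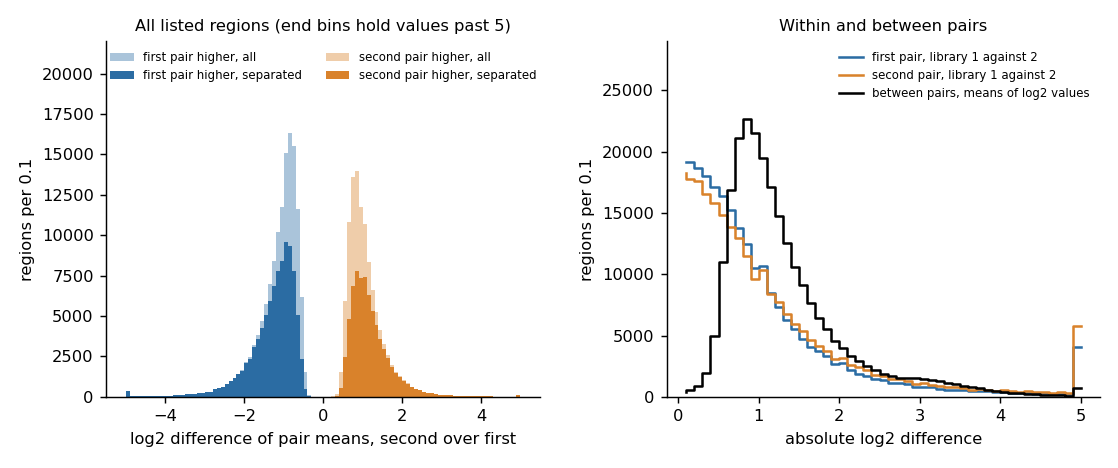
Left, number of regions per 0.1 of log2 difference between pair means, for all regions (pale) and separated regions (dark); right, absolute log2 difference between the 2 libraries of each pair and between the pairs. Few regions lie near 0 on the left, since the table lists regions chosen for a difference.

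The direction moved with how densely H3K9me2 regions were listed. On the autosomes, cut into 1 Mb bins, 33.6% of regions were higher in the second pair in the 74 bins with 1 to 30 listed regions, 36.4% in bins with 31 to 60, 39.7% with 61 to 100, 44.5% with 101 to 150, 50.7% with 151 to 200 and 56.1% in the 36 bins with over 200. The sums of the libraries, taken over the same listed regions, went the same way and are no separate check. Bins with 31 to 60 regions held 6.36% and 6.87% of the summed values of the first-pair libraries and 5.80% and 5.94% of those of the second, and bins with 151 to 200 held 23.8% and 23.2% against 26.3% and 25.8%. In both classes the 2 pairs did not overlap, in regions that were listed for a difference between them. Leaving out any 1 library kept the share between 35.0 and 38.8% in bins with up to 60 regions and between 53.9 and 57.2% in bins with over 200. The regions and bins stayed those listed for a difference between the pairs, so these shares are no separate check either.

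Sparse bins were rich in genes, with a median of 22.5 protein-coding genes at 1 to 30 regions and 1 gene at 151 to 200. Grouped by genes instead, the share of regions higher in the second pair was 46.9% in bins without a gene, 42.2% in bins with 11 to 20 and 43.8% in bins with over 20, a narrower range. The density of listed regions and the number of genes move together here, and their parts were not separated. In the same bins, the G9a table had 56.9% of its regions higher in its second pair at 31 to 60 H3K9me2 regions 28.9% at 151 to 200 and 42.7% at over 200, while for H3K27me3 the shares were 55.0%, 32.3% and 49.1%. The pair order is unnamed in each table, so these are only set side by side.

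**Figure D3:**
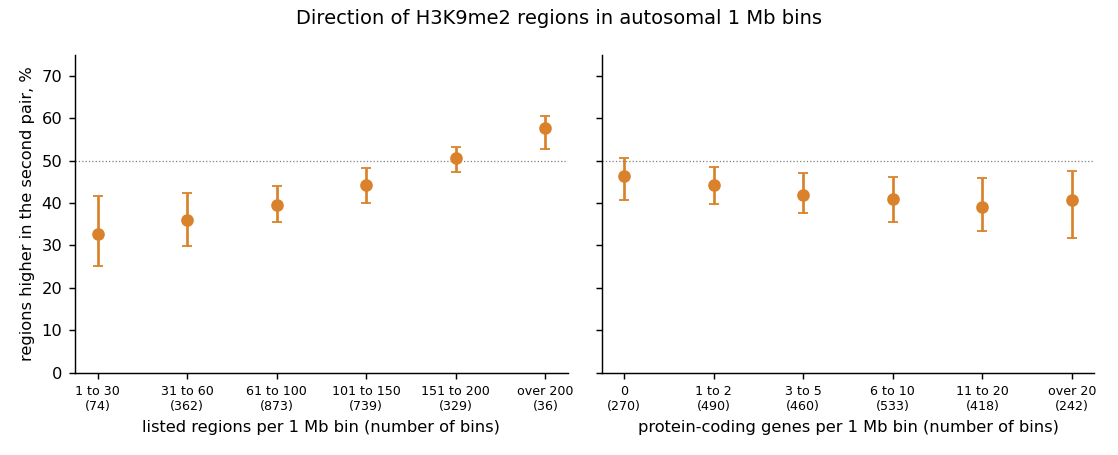
Share of H3K9me2 regions higher in the second pair (vertical axis, %) in autosomal 1 Mb bins grouped by listed regions (left) and by protein-coding genes (right); points are medians over bins and bars the quartiles. The median runs from 32.7% in the sparsest class to 57.6% in the densest.

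Single bins ranged further. Of those with at least 100 regions, the highest share was at 152 Mb of chromosome 4, where 114 of 160 regions (71.2%) were higher in the second pair, with sums of 14270 and 17463 against 24205 and 25872. It holds Chd5, a chromatin remodeller, and Kcnab2, a potassium channel subunit. On chromosome 5, runs of 16 second-pair regions lay at chr5:127874451-127929700 and chr5:128340751-128375550, by Tmem132d, and on chromosome 12 a run of 17 lay in Nrxn3, a synaptic adhesion gene. Over all neighbouring regions the direction was the same in 51.1% of pairs, near an even split. It was the same in 39.9% of the 22892 pairs less than 500 bp apart.

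Among chromosomes, the share higher in the second pair ran from 41.5% on chromosome 10 to 49.1% on chromosome 7 over the autosomes. Chromosome X had 1173 regions, 7.00 per Mb beside 87.5 to 114 on the autosomes, and 62.6% of them were higher in the second pair. The summed values on X were 85225 and 85476 against 103861 and 106001. Chromosome Y had 73 regions, 53.4% higher in the second pair.

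**Figure D4:**
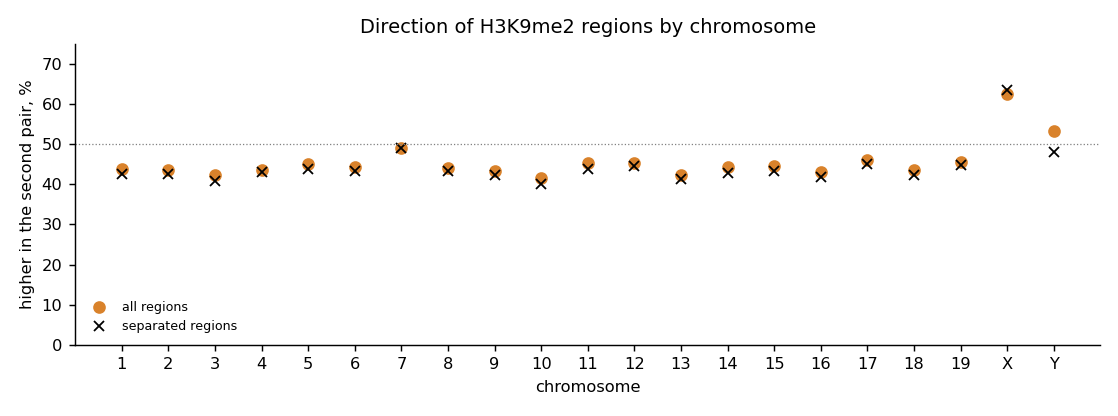
Share of H3K9me2 regions higher in the second pair (vertical axis, %) on each chromosome, for all regions (circles) and for separated regions (crosses). The autosomes lie between 41.5 and 49.1% for all regions and chromosome X at 62.6%.

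Most regions lay away from gene ends. Between genes were 66.8%, in gene bodies 28.3% and within 2500 bp of an end 4.84%, and the shares higher in the second pair were 45.3, 42.4 and 42.9%. By the length of the gene, the share was 47.1% in genes up to 10 kb, 40.7% at 10 to 30 kb and 38.4% at 30 to 100 kb. It was 40.3% at 100 to 300 kb and 45.2% over 300 kb, so it did not move in one direction with length. At promoters, 3.46% were met by a first-pair and 2.62% by a second-pair region. With 0 to 2 CG dinucleotides the shares were 5.77% and 5.08%, and with over 20 they were 0.933% and 0.749%. The starts of Dnmt3b and Slc16a9 are thus among 61 and 76 promoters, of 8148 with over 20, that a second-pair or a first-pair region met. Around CpG-rich starts the covered share of bases fell from 1.97% (first pair) and 1.45% (second pair) nearly 10 kb upstream to 0.271% and 0.404% just inside the gene, at 1250 bp. Around CpG-poor starts it was highest just after the start, at 4.58% and 4.62%.

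**Figure D5:**
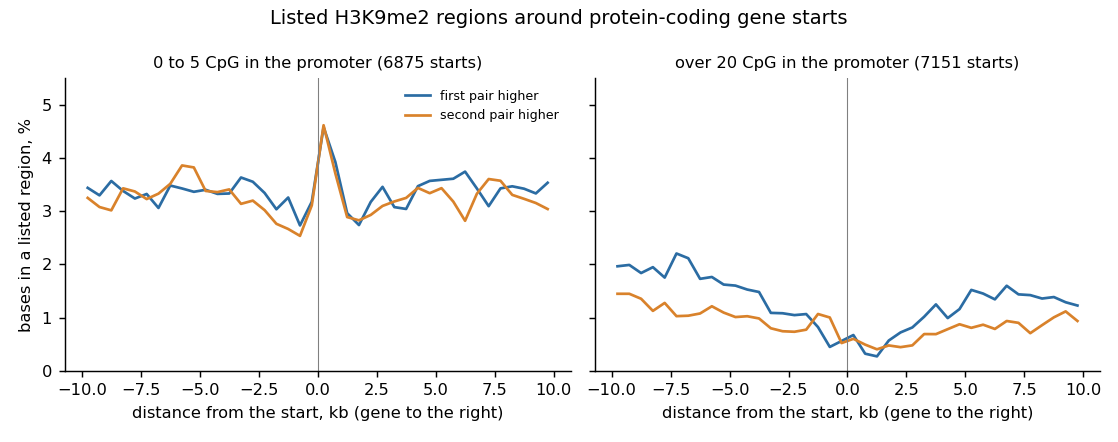
Share of bases in a listed H3K9me2 region (vertical axis, %) by distance from protein-coding gene starts (horizontal axis, kb), for promoters with 0 to 5 CG dinucleotides (left) and over 20 (right); blue is higher in the first pair and orange in the second. CpG-poor starts carry a peak of 4.58 and 4.62% just after the start, and CpG-rich starts a dip.

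Regions of the mark were also compared with the table of G9a, the enzyme that places it. Of the H3K9me2 regions, 31.2% met a listed G9a region, and 19.8% of the G9a regions met one of H3K9me2. The share was 30.6% for first-pair and 31.8% for second-pair regions. Of regions that met G9a regions of a single direction, 39.0% of first-pair and 52.4% of second-pair H3K9me2 regions met one higher in the second pair of the G9a table. The share was 45.1% for both directions together, and 44.5% of all G9a regions were higher in that pair. With H3K27me3, the Polycomb mark, 52.1% of H3K9me2 regions and 23.2% of its own regions overlapped. The corresponding shares were 39.9% and 50.6%, beside 44.7% for both directions together and 42.7% of all H3K27me3 regions. The G9a regions covered 294 Mb and those of H3K27me3 593 Mb, and the overlap due to coverage alone was not worked out. The pair order is unnamed in each table, so the directions are only set side by side.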

How the data were processed

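H3K9me2 was measured by ChIP-seq in 4 libraries, 2 of each condition. BWA 0.7.10-r789, SAMtools 1.1 and the mouse build mm10 are named per the submitters' processing notes. The sources used here name neither the caller nor its scaling or input correction. For each antibody the authors deposited a table of regions with no header, whose column 11 holds 4 whole-number values on a scale that is not stated, and a -log10 p; the values were therefore not tested as counts. Replicates are biological per the labels' design text.

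Of 245090 lines, 2 on mitochondrial DNA were left out. The log2 difference used a pseudocount of 1. limma 3.58.1 (R 4.3.3, trend) was fitted to log2(value + 1) of all regions and adjusted over all of them by Benjamini-Hochberg at 0.05. The fit was also run on simulated data, with less spread between the libraries of a pair than these regions have. That run therefore does not show how well the fit performs on these values. Depth is unknown, since the tables give no read totals; summed values over listed regions ran from 22175663 to 23973355 per library. Genes and promoters were from RefSeq, assembly GRCm38.p6, with windows of 2500 bp around both ends of 21887 protein-coding genes. Exons and introns were not told apart. No per-sample column was left unused (0).

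Members and gene lists were chosen with earlier results of these data known. Named genes are, per direction, those with the largest separated difference near an end at a higher-pair mean of at least 200 and a region shared by at most 2 genes, up to 4 separated members of each list and 2 of each family, a fixed set of heart, methylation and zinc finger genes, and the widest and highest regions. The genes of the single bins and runs, and those of the closing observations were chosen after their values were seen. Alternatives were another pseudocount, a filter on low means, 2 scalings, other windows, a stricter overlap and each library left out.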

Additional observations from a re-analysis of the deposited data

How the results depend on the processing

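No paired analysis was possible because the values carry no replicate numbers. The median log2 difference of all regions, -0.66, was -0.61 with only regions of a mean of at least 50, -0.59 with each library divided by its sum, -0.48 with each library centred on its median, -0.60 with a pseudocount of 10, and -0.38 to -0.30 when 1 library was left out. Centring moved the median difference between pairs by 0.17 and the number of regions higher in the second pair was 108718 in place of 108717. Hardly any listed region lies that close to 0, so this count could not move and is no check on the scaling. The 1 limma call in the second-pair direction became 20 with a pseudocount of 10, 5 with the filter, 2 with division by sums, 2 with centring and 0 to 0 when 1 library was left out. The 0 calls in the first-pair direction became 7 with a pseudocount of 10 and 1 with the filter. Genes with a separated region near an end, 3068 second-pair and 4246 first-pair, numbered 1656 and 2117 with windows of 1000 bp and 5051 and 7115 with windows of 5000 bp. Regions that had at least 50% of their length in another table's region were 21.9% for G9a and 41.6% for H3K27me3. No result reversed under these alternatives, apart from which direction had more separated regions and more regions at an unadjusted limma p under 0.05, given above. Of the values of regions at named genes under alternatives, 673 moved by less than the spread between replicates and 137 by more, and the cause was not tested.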

Other observations

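With a pseudocount of 10, chosen as an alternative, limma called 27 regions at an adjusted p under 0.05. They included the long region in Ehmt2 (limma adjusted p 0.0312), the region of Dnmt3b (0.00494), that upstream of Ankrd1 (0.0275) and that of Adrb1 (0.0336). None of these was called with the pseudocount of 1. The limma adjusted p was then 0.383 at Ehmt2 and Adrb1, 0.149 at Dnmt3b and 0.307 at Ankrd1. A region in Snd1, a nuclease of RNA silencing complexes, had 1 and 12 against 490 and 318 (0.0370). In the other direction, a region in Ide, the insulin-degrading enzyme, had 396 and 433 against 13 and 4 (0.0312). With the pseudocount of 1 the limma adjusted p was 0.383 at both Snd1 and Ide.

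Of the 7 calls in the first-pair direction, 5 lay at the ends of the sex chromosomes, where X and Y share the pseudoautosomal region. A region in Mid1 on X, chrX:169981651-169985350, had 1482 and 945 against 24 and 154, and 4 regions on Y between 90797051 and 90813400 all had higher values in the first pair, such as 1275 and 1166 against 65 and 125. Sequence there is nearly identical on X and Y, and the values are uncertain between these chromosomes.

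Of 1005 microRNA hairpins in RefSeq, 36 (3.58%) lay in a first-pair and 21 (2.09%) in a second-pair region, near the shares of promoters (3.46% and 2.62%). Some hairpins share a region, and the regions numbered 27 and 19. Mir214, which is expressed in stressed heart, had 110 and 90 against 21 and 35 (log2 -1.80), and Mir199a-2 beside it had 29 and 92 against 27 and 27. In the imprinted cluster of chromosome 12, neighbours went both ways. Mir541 had 99 and 154 against 0 and 1, and Mir1197 had 184 and 188 against 67 and 55, while Mir300 had 23 and 32 against 140 and 191 and Mir673 had 100 and 161 against 291 and 303.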
